A study of Mus musculus with 27 samples.

Results

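Donor-derived cells recovered from the healthy small intestine on the second day after transfer were compared with cells recovered on the first. All 57 measured genes of a monocyte and macrophage panel of 67 were taken, in 10 of the 27 mice of the series, and the other 10 panel genes held no values: the dendritic cell genes Zbtb46 and Flt3, the macrophage genes Cd163, Pparg and Nos2, the ligands Csf2, Il4 and Cx3cl1, and Ccr8 and Stat3. The day 2 group and the day 1 group each held 5 non-manipulated recipients, mice with no surgery. In both groups the donors were C57BL/6 mice (CD45.2+), called wild-type by the study. Its methods name wild-type or CX3CR1gfp/+ (reporter) donors for such transfers and do not tie them to mice. Bone marrow monocytes (CD11b+Ly6C+), purified by magnetic depletion of other cells, were given intravenously to C57BL/6 CCR2-/- recipients (CD45.1+). The recipients lack CCR2, the chemokine receptor with which monocytes leave the marrow, so their own blood holds few monocytes. From each recipient 100 donor cells with the phenotype Ly6G-SiglecF-CD11b+CD11c lo/int CD64+ were sorted from the lamina propria, so each value is an average over a small number of cells of 1 mouse. The mice came from pooled experiments, and the labels do not tie a mouse to an experiment. The day 5 group of the same arm (4 mice) and the day 2 and day 1 groups of manipulated recipients (4 and 5 mice), whose gut had been inflamed surgically before the transfer, appear only for comparison.

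Blood monocytes enter the gut wall throughout life and turn there into resident macrophages. On the way they lose monocyte proteins such as Ly6C, acquire MHC class II, and become cells that produce interleukin-10 and clear debris and microbes without inciting inflammation. The comparison asks which panel genes differ at the first step of this course, within a day of one another.

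After multiplexed pre-amplification, transcripts were quantified by NanoString nCounter, a method that hybridises barcoded probes to each target and counts the barcodes one by one. Levels are scaled counts, meaning counts divided by the geometric mean of ACTB, Gapdh and Rpl19 in the same lane and multiplied by the mean of that quantity over all samples. They compare a gene between mice and not 1 gene with another. The summed count of the 57 genes ran from 697131 to 1234421 on day 2 and from 893117 to 1161520 on day 1, and the 2 groups differed by -0.08 on the log2 scale (exact permutation test, two-sided, p = 0.698). The housekeeping geometric mean differed by -0.15 (exact permutation test, two-sided, p = 0.508, where 252 splits allow no p below 0.00794). In the lane of day 2 mouse 1, Gapdh was high (155518 scaled counts, against 76568 to 92183 in the other day 2 mice) and Rpl19 low (1076, against 1824 to 2423). Of the 570 values, 4 did not exceed the background of their lane, all of Retnla or Il6. The lanes of mice 5 stood apart within both groups. Day 2 mouse 5 held the highest or lowest of the 5 values in 44 of 57 genes, and day 1 mouse 5 in 42. The median distance of a gene from its group was 0.67 log2 units in day 2 mouse 5 and 0.96 in day 1 mouse 5, against 0.18 to 0.41 in the other lanes. The sort markers on the panel were present: Fcgr1, which encodes CD64, and Itgax, which encodes CD11c, exceeded background in all 10 lanes.

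Between day 2 and day 1, 8 of 57 genes passed the test (14%, adjusted p below 0.05). Il1a, Ccl7, Il23a, Ccr9, Tnf and Il10 were higher on day 2 (6 genes, 10.5%), and 2 genes were lower (3.51%), Chil3 among them. The median log2 fold change of all 57 genes was 0.10. The 5 day 2 values and the 5 day 1 values did not overlap in 6 genes (10.5%), of which 4 were called, Il1a, Ccl7 and Chil3 among them, and 2 were not (Itgb7 and Spi1). The log2 fold change was beyond 1 in either direction for 19 genes, and 11 of these did not pass, while 28 genes lay within 0.5 of zero. At an unadjusted p below 0.05 stood 15 genes. With both mice 5 left out, 7 genes were called: Ccr9 and Il10 lost their calls and Arg1, an enzyme gene described below, gained one. Spread between mice was similar on both days, with a median SD of 0.73 log2 units on day 2 and 0.68 on day 1.

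**Figure D1:**
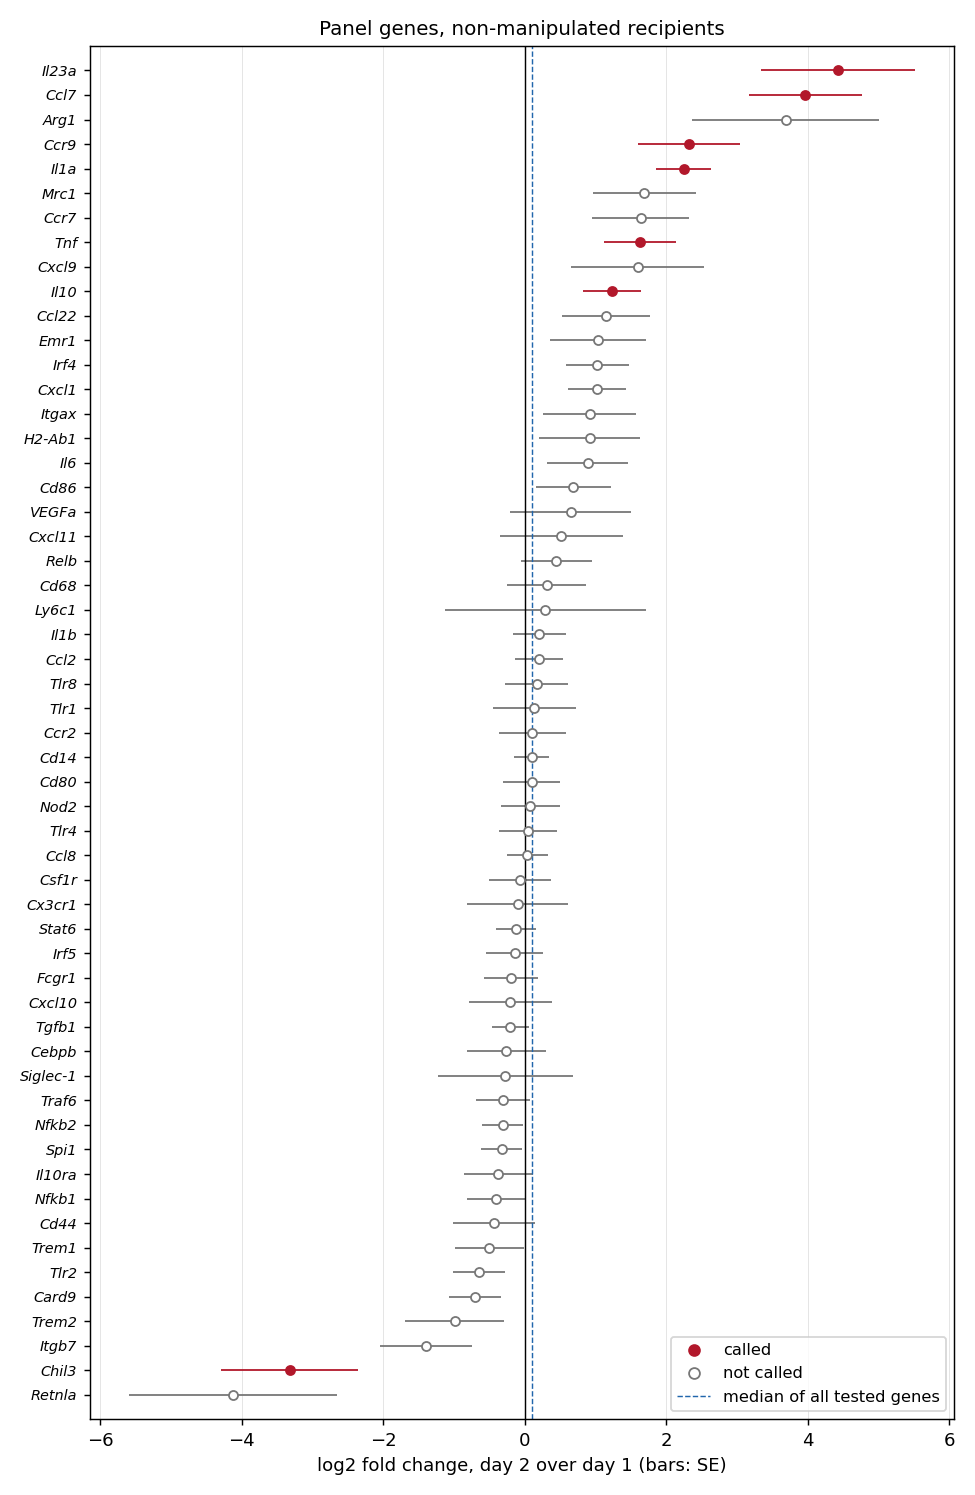
Log2 fold change of 55 of the 57 panel genes, day 2 over day 1, in non-manipulated recipients (5 mice each); bars are the SE of the fit, filled points passed the test and the dashed line marks the median of all 57 genes. Of the 7 called genes drawn, Chil3 lies on the lower side, and Retnla and Arg1 reach as far from zero but with wide errors.

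Sequences upstream of the start site were held by the RefSeq promoter table (GRCm38.p6) for 4 of the 8 called genes, and 3 are shown because these genes moved in different directions: Il1a and Tnf upwards and Chil3 downwards. Each line gives the 250 bases before the start, 5′ to 3′ on the gene's strand, and capitals mark every match to the motifs searched on both strands.
Il1a (chr2:129309973-129310222, minus strand): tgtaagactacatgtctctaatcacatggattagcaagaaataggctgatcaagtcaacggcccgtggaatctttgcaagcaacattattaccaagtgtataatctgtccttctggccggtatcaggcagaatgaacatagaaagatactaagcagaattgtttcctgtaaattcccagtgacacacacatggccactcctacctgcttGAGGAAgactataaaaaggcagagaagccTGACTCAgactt
Tnf (chr17:35202008-35202257, minus strand): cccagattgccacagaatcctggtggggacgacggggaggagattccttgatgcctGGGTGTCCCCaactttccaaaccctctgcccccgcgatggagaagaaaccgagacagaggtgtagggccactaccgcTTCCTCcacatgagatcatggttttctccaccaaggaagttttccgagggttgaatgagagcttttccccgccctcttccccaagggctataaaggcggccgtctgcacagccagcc
Chil3 (chr3:106167565-106167814, minus strand): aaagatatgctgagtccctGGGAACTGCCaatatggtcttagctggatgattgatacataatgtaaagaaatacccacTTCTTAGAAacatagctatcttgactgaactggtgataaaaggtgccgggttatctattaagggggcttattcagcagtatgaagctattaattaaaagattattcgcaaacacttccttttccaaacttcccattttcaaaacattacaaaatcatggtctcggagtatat
The motifs were kappaB (GGG and CC with 5 bases of any kind between them, the site type of NF-kB), ISRE (GAAA given 2 times with 2 bases of any kind between, interferon-regulated genes), GAS (TTCNNNGAA, STAT factors), the PU.1 core (GAGGAA), C/EBP (TTGCNNAA) and AP-1 (TGANTCA). The Il1a window held a PU.1 core and an AP-1 match, the Tnf window a kappaB match and a PU.1 core on the opposite strand, and the Chil3 window a kappaB and a GAS match. Such matches are common: of 32851 promoters of this length, 45.8% held the kappaB letters, 23.3% the PU.1 core, 9.56% C/EBP, 7.02% GAS, 6.75% AP-1 and 2.98% ISRE. A match describes letters only. Part of the Il1a window lies inside the widest annotated extent of the gene (chr2:129299609-129310186). Among the called genes whose promoters are not shown, Il10 lies on chromosome 1 (chr1:131019845-131024970), Il23a on chromosome 10 (chr10:128296140-128298084), Ccl7 on chromosome 11 (chr11:82045712-82047525) and Ccr9 on chromosome 9 (chr9:123767211-123783457).

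Among the proinflammatory cytokines, 3 of 5 measured genes rose on day 2 and none fell, against 10.5% of the panel that rose, and the list had a median log2 fold change of 1.63. Il1a alone of the 5 passed with limma, a linear model of log2 values, on the authors' normalized values. Il1a, the gene of interleukin-1 alpha, a cytokine released by damaged or activated cells, stood at 36871, 57989, 10540, 51006 and 15457 scaled counts in day 2 mice 1 to 5, against 8129, 7600, 9567, 6941 and 4000 in day 1 mice 1 to 5. Every day 2 mouse lay above every day 1 mouse, although day 2 mouse 3 exceeded day 1 mouse 3 only narrowly. The fold change was 4.74 (log2 2.25 ± 0.39 SE, edgeR adjusted p = 0.00028), and it passed without each of the 10 mice in turn. Tnf, which encodes the inflammatory cytokine tumour necrosis factor, had 73044, 63519, 53232, 84788 and 21088 scaled counts on day 2 and 14136, 12890, 27874, 34557 and 6098 on day 1. The groups overlapped through day 2 mouse 5, the lowest of its group, as day 1 mouse 5 was of its own. Its log2 fold change was 1.63 ± 0.51 (adjusted p = 0.0304). The call was lost without day 1 mouse 1, 2 or 5 or day 2 mouse 1 or 4, with values of 1.40 to 1.54 and adjusted p between 0.061 and 0.0782. It was also lost with Rpl19 left out of the scaling (1.52, adjusted p = 0.0589), with the authors' own scaling factor (1.5, adjusted p = 0.106) and with limma on the authors' normalized values (1.60, adjusted p = 0.16).

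Il23a encodes the p19 subunit of interleukin-23, a cytokine that sustains interleukin-17 responses of lymphocytes. Its scaled counts were 878, 686, 50, 5933 and 61 in day 2 mice 1 to 5, against 46, 74, 57, 111 and 64 on day 1. Day 2 mice 1, 2 and 4 exceeded all day 1 mice, and day 2 mice 3 and 5 lay within the day 1 range. This amounted to a log2 fold change of 4.43 ± 1.09 (adjusted p = 0.00595). Without day 2 mouse 4 it was 2.57 and no longer passed (adjusted p = 0.0658). Nor did it pass with limma, at 2.58 with a pseudocount of 1 (adjusted p = 0.119), 2.18 with 50 (adjusted p = 0.146) and 2.44 on the authors' normalized values (adjusted p = 0.277). The remaining cytokines of the list did not pass. Il1b, the gene of interleukin-1 beta, ranged from 15929 to 56703 scaled counts on day 2 and from 16326 to 58405 on day 1, nearly the same interval (log2 0.21, adjusted p = 0.842). Il6, which encodes the fever cytokine interleukin-6, was close to background on both days, at 21 to 153 on day 2 and 34 to 62 on day 1 (log2 0.89, adjusted p = 0.348).

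Of 4 chemokines that recruit monocytes or neutrophils, 1 rose, against 10.5% of the panel that rose, and none fell. The list median was 0.62. The gene that rose was Ccl7, a ligand of CCR2. It had 443, 1502, 1691, 1248 and 5366 scaled counts on day 2 and 61, 95, 81, 58 and 361 on day 1. The groups did not overlap, and mouse 5 was the highest of its group on each day. The fold change was 15.6 (log2 3.97 ± 0.80, adjusted p = 0.00126) and the call held without each mouse in turn. On day 1 every mouse but mouse 5 lay close to background, so the size of the Ccl7 fold change is uncertain. Ccl2, the other main CCR2 ligand, had 2608 to 5302 scaled counts on day 2 and 1764 to 4184 on day 1 (log2 0.21, adjusted p = 0.838). Cxcl1, a neutrophil attractant, averaged 418 ± 177 on day 2 and 206 ± 85.5 on day 1 (SD, n = 5 each; log2 1.02, adjusted p = 0.0995). It passed without day 1 mouse 4 (1.28, adjusted p = 0.0464). Ccl8, also a monocyte attractant, was low on both days (72 to 138 and 77 to 114).

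**Figure D2:**
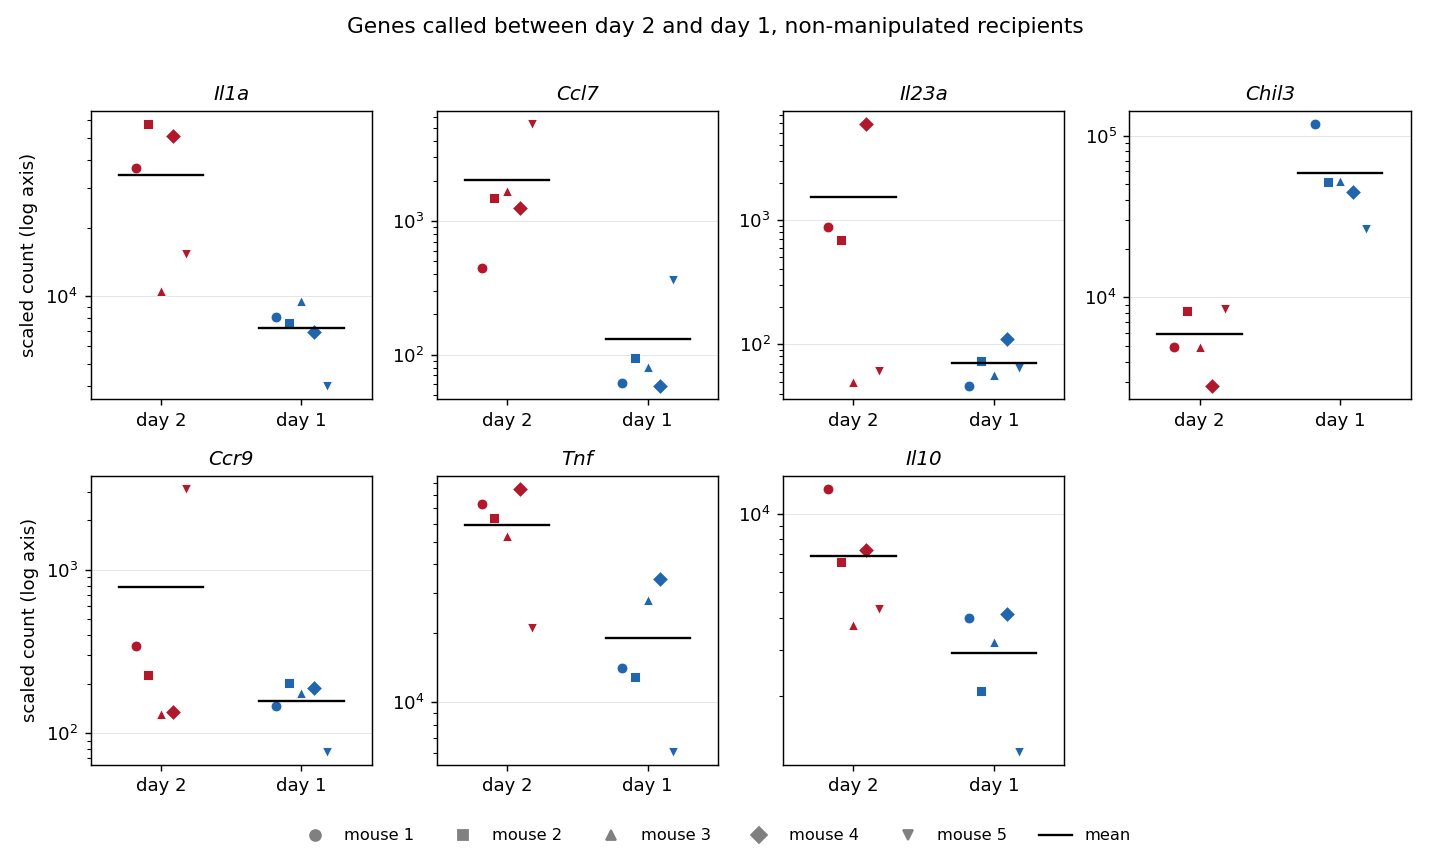
Scaled counts, on a log axis, of 7 genes that passed the test, in day 2 (left) and day 1 (right) non-manipulated recipients; each symbol is 1 mouse and the line is the group mean. Il1a, Ccl7 and Chil3 separate the days completely, whereas the Ccr9 mean on day 2 is set by mouse 5 and the Il23a mean by mouse 4.

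Among 4 Ly6C+ monocyte genes, 1 fell, none rose and 3 did not pass, against 3.51% of the panel that fell, and the list median was -0.16. Chil3, which encodes the chitinase-like protein Ym1, abundant in young monocytes, gave 4925, 8273, 4947, 2816 and 8476 scaled counts on day 2 and 118305, 51650, 52490, 44639 and 26581 on day 1. The groups did not overlap, and day 1 mouse 1 was the highest by far. Chil3 was 9.98-fold lower on day 2 (log2 -3.32 ± 0.97, adjusted p = 0.024). In these bulk samples a smaller share of cells that express a gene and less RNA per cell cannot be told apart. The call was lost without day 1 mouse 1 (-2.90, adjusted p = 0.0552) or day 2 mouse 4 (-3.14, adjusted p = 0.0638), and with limma at a pseudocount of 1 (-3.25, adjusted p = 0.0506). The probe may also count transcripts of the closely related Chil4.

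The other monocyte genes showed no call. Ccr2, the receptor that brings monocytes into inflamed and healthy tissue, had a lowest, median and highest value of 56506, 65444 and 118573 scaled counts on day 2 and 44778, 58324 and 111982 on day 1 (log2 0.11 ± 0.47, adjusted p = 0.912). Ly6c1, whose probe also may read the near-identical Ly6c2, the Ly6C gene of monocytes, had 16509, 145, 144, 10208 and 32957 scaled counts on day 2 and 14404, 1649, 1174, 1928 and 29887 on day 1. Mice of the same day spread over orders of magnitude, and the fold change was 0.29 ± 1.42 on the log2 scale (adjusted p = 0.912), so a difference could not be detected at this spread. Cd44, a receptor for hyaluronan, had -0.43 ± 0.58 (adjusted p = 0.734). Summed over the 4 genes, the markers reached 66942 to 160286 scaled counts on day 2 and 101510 to 200824 on day 1. These ranges overlap, but a sum mostly follows the genes with the highest counts and does not weigh the markers equally.

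Among 7 adhesion and homing genes, 1 rose (Ccr9), against 10.5% of the panel that rose, none fell, and the median was 0.11. Ccr9 is the receptor for the small-intestinal chemokine CCL25. It had 343, 226, 130, 134 and 3106 scaled counts on day 2 and 146, 202, 175, 189 and 77 on day 1. The call rested on day 2 mouse 5: the log2 fold change was 2.32 ± 0.72 with it (adjusted p = 0.0304) and 0.40 without it (adjusted p = 0.623). It was also lost without day 1 mouse 1 (2.29, adjusted p = 0.0582) or day 1 mouse 5 (2.15, adjusted p = 0.0763), and with limma it was 1.02 to 1.16 and did not pass (adjusted p 0.312 to 0.563). Itgb7 encodes the beta7 chain of the gut-homing integrin alpha4beta7, and its day 2 values (3125, 5050, 8188, 6999 and 9416) all lay below its day 1 values (11834, 13339, 27143, 19045 and 14398). The log2 fold change of Itgb7 was -1.39 ± 0.65 and did not pass (adjusted p = 0.16), but it passed in the fit on the 10 compared mice alone (adjusted p = 0.0293). Cx3cr1, the fractalkine receptor of resident macrophages, had 860, 522, 1096, 911 and 3374 scaled counts on day 2 and 479, 2567, 1998, 1885 and 337 on day 1 (log2 -0.10 ± 0.71). Mouse 5 was the highest on day 2 and the lowest on day 1. Ccr7, the receptor that guides cells to lymph nodes and the only dendritic cell marker measured, had 1093 to 17885 scaled counts on day 2 and 699 to 3057 on day 1 (log2 1.64 ± 0.69, adjusted p = 0.122). The high value was that of day 2 mouse 1. The part of dendritic cells in any result was not tested.

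In the list of mature intestinal macrophage genes, 1 of 7 rose, against 10.5% of the panel that rose, and none fell. The median was 0.92, the second highest of the 12 lists after the proinflammatory cytokines. Il10, the gene of the anti-inflammatory cytokine interleukin-10, had 12475, 6554, 3747, 7262 and 4334 scaled counts on day 2 and 3989, 2084, 3232, 4124 and 1219 on day 1. Day 2 mouse 3 lay within the day 1 range and the other 4 exceeded all of it. Its log2 fold change was 1.23 ± 0.41 (adjusted p = 0.0416), the call nearest the threshold. It was lost without any of day 1 mice 1, 2, 3 and 5 or day 2 mice 1, 2 and 4, at values of 0.90 to 1.37 and adjusted p of 0.0548 to 0.183. Of 21 alternatives in scaling, model or samples, 13 lost it too, the fit on the 10 compared mice (1.23, adjusted p = 0.117), the authors' factor (1.18, adjusted p = 0.148) and limma on the authors' values (1.09, adjusted p = 0.307) among them. Il10ra, the ligand-binding chain of its receptor (log2 -0.37, adjusted p = 0.734), and Tgfb1, which encodes another regulatory cytokine (-0.20, adjusted p = 0.734), did not pass.

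H2-Ab1 encodes the beta chain of MHC class II. Its scaled counts were 178783, 128218, 189078, 186937 and 212775 on day 2 and 110104, 85027, 71511, 74946 and 130407 on day 1. Only day 2 mouse 2 lay below the highest day 1 mouse. The log2 fold change of 0.92 ± 0.71 did not pass in the model of all 27 samples (adjusted p = 0.449). In a fit on the 10 compared mice it was the same size and passed (adjusted p = 0.00597), as in one on the 14 non-manipulated mice (adjusted p = 0.0262). Mrc1, the mannose receptor CD206 of tissue macrophages, stood at 134, 263, 278, 224 and 777 on day 2 and at 92, 216, 76, 57 and 77 on day 1. All but day 2 mouse 1 exceeded every day 1 mouse (log2 1.69 ± 0.73, adjusted p = 0.127). Itgax reached 5753 to 13043 on day 2 and 2045 to 6363 on day 1 (log2 0.92, adjusted p = 0.42). Siglec-1, a sialic acid receptor of macrophages, was highest in mouse 5 on both days (14477 and 22975) and had a log2 fold change of -0.27 (adjusted p = 0.912). Of the co-stimulatory genes, Cd86 had 0.69 (adjusted p = 0.449) and Cd80 0.10 (adjusted p = 0.912), so none of the 3 antigen presentation genes passed.

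None of 5 macrophage identity genes passed, and their median was -0.06. Spi1 encodes PU.1, the transcription factor on which the whole lineage depends. It had 59437, 55648, 60641, 54400 and 62968 scaled counts on day 2 and 69240, 68947, 78908, 64831 and 82718 on day 1. The groups did not overlap, and the mice of a day differed little (SD 0.09 log2 units on day 2 and 0.15 on day 1). The difference was small and did not pass (log2 -0.32 ± 0.29, adjusted p = 0.592). Its SE comes from the model of all 27 samples, where other groups varied more, as on day 5 (45541 to 107476 scaled counts). No call was gained in any of 21 alternatives (lowest adjusted p = 0.137). Emr1, now named Adgre1, the gene of a classical surface antigen of mouse macrophages, had 985, 1069, 1774, 1264 and 7296 on day 2 and 764, 1632, 1779, 1447 and 393 on day 1. Its value of 1.04 ± 0.68 (adjusted p = 0.351) became 0.08 without day 2 mouse 5. Cd68, a lysosomal glycoprotein, showed the same mouse apart: 35250 scaled counts in day 2 mouse 5, against 6500 to 8235 in the other day 2 mice and 4178 to 14793 on day 1. Fcgr1 had 16985 to 40991 on day 2 and 17457 to 48126 on day 1 (log2 -0.19, adjusted p = 0.858), and Csf1r, which encodes the M-CSF receptor that macrophages need to survive, had -0.06 (adjusted p = 0.912). The 7 macrophage markers summed to 47018 to 145901 scaled counts on day 2 and 60094 to 95664 on day 1. This sum too mostly follows the genes with the highest counts.

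**Figure D3:**
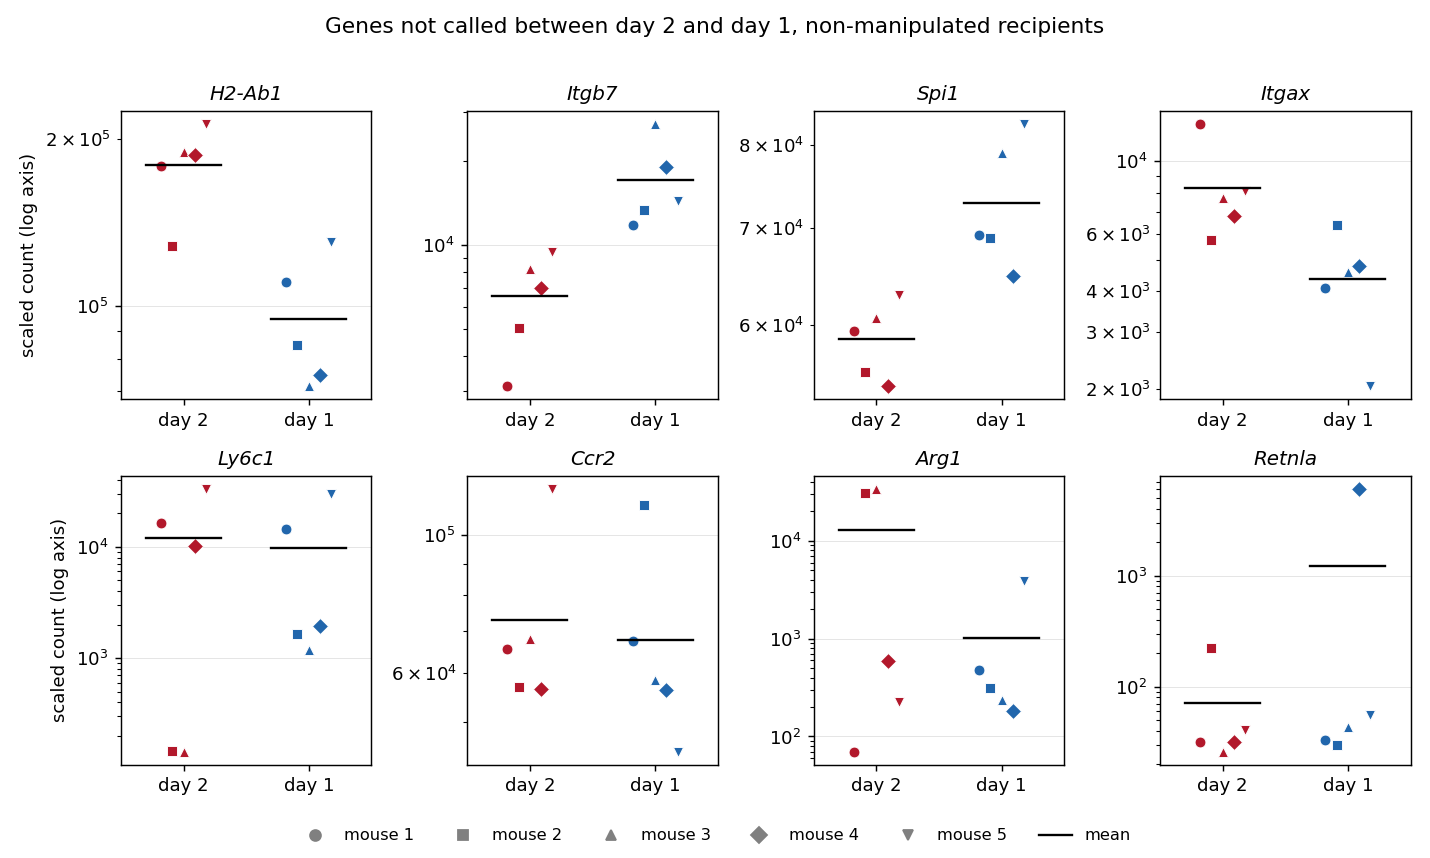
Scaled counts, on a log axis, of 8 genes that did not pass, in day 2 (left) and day 1 (right) non-manipulated recipients; symbols are mice and lines are group means. Itgb7 and Spi1 separate the days, H2-Ab1 and Itgax overlap slightly, and Arg1, Retnla and Ly6c1 vary by orders of magnitude between mice of the same day.

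Alternative activation genes, a group induced in macrophages by interleukin-4, held 1 lower gene of 8 (Chil3). Of the panel 3.51% fell, and the list median was 0.46. Arg1, the arginine-degrading enzyme arginase 1, lay above background in all 10 mice and was very high in a minority: 70, 30600, 33769, 596 and 223 scaled counts on day 2, and 482, 315, 237, 183 and 3856 on day 1. Day 2 mice 2 and 3 were far above all others and day 2 mouse 1 was the lowest of the 10. The log2 fold change of 3.69 ± 1.32 missed the threshold (adjusted p = 0.0562). It passed without day 1 mouse 5 (5.42, adjusted p = 0.0182), day 2 mouse 1 (4.01, adjusted p = 0.0346) or day 2 mouse 5 (4.0, adjusted p = 0.033). Without day 2 mouse 2 (3.09, adjusted p = 0.145) or 3 (2.96, adjusted p = 0.134) it did not pass. Nor did it with limma (1.57 to 1.75, adjusted p 0.53 to 0.727), and 16 of 21 alternatives left it uncalled. Retnla, which encodes the secreted protein RELM-alpha, had 32, 222, 26, 32 and 41 on day 2 and 33, 30, 43, 6007 and 56 on day 1. Its log2 fold change of -4.12 ± 1.47 (adjusted p = 0.0562) came from day 1 mouse 4 and was 0.80 without it (adjusted p = 0.702). The value passed without day 1 mouse 2 (-4.43, adjusted p = 0.0461), day 1 mouse 3 (-4.43, adjusted p = 0.0488) or day 2 mouse 2 (-5.23, adjusted p = 0.0384). Ccl22, a chemokine for regulatory T cells (1.15, adjusted p = 0.258), Irf4, a transcription factor of this programme (1.03, adjusted p = 0.128), Stat6, the signal transducer of interleukin-4 (-0.12, adjusted p = 0.884), and Trem2, a lipid receptor of macrophages (-0.99, adjusted p = 0.42), did not pass.

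No gene passed in the remaining lists. In the interferon response, Cxcl9, Cxcl10 and Cxcl11, 3 T-cell attractants, had log2 fold changes of 1.60, -0.20 and 0.52. The Cxcl9 mean on day 2 held 18497 scaled counts in mouse 5, against 1753 to 5345 in the other day 2 mice. The median of the 3 genes was 0.52.

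The 7 genes of pattern recognition and proximal signalling had a median of -0.31 and lay between -0.70 and 0.10. Card9, an adaptor of fungal receptors, was the farthest from zero: 9587 to 16820 scaled counts on day 2 and 16818 to 26566 on day 1 (log2 -0.70 ± 0.37, adjusted p = 0.258). All 5 day 2 mice lay below the day 1 mean, and only day 2 mouse 5 touched the day 1 range. Trem1, an amplifier of inflammatory signals, had -0.50, and its highest value was that of day 1 mouse 3 (2593). The peptidoglycan sensor gene Nod2 had 0.08, the lipopolysaccharide receptor genes Cd14 and Tlr4 had 0.10 and 0.05, the lipopeptide receptor gene Tlr2 -0.64 and the signalling adaptor Traf6 -0.31.

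The 5 genes of NF-kB subunits and inflammatory transcription factors lay between -0.41 and 0.45, with a median of -0.26: Nfkb1, Nfkb2 and Relb, which encode NF-kB subunits, had -0.41, -0.31 and 0.45, Irf5 had -0.14 and Cebpb -0.26. Nfkb2 varied little on day 2 (7600 to 10747 scaled counts) and more on day 1 (5576 to 18518). Of the 3 genes on no list, the Toll-like receptor genes Tlr1 and Tlr8 had 0.14 and 0.17, and VEGFa, an angiogenic factor, had 0.65 (adjusted p = 0.734).

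Lanes of mice 3 and 4 carried deposited values multiplied by 1.333, which marks a shared handling of these lanes whose nature the sources do not give, so the comparison was repeated within each set of lanes. Chil3 had log2 fold changes of -3.65 within mice 3 and 4 and -3.18 within the other mice, and Tnf 1.14 and 2.25, all past the test. Ccl7 had 4.40 and 3.82 (adjusted p = 0.0527 in the other mice) and Il1a 1.90 (adjusted p = 0.0591 in mice 3 and 4) and 2.48. Il23a had 5.15 and 3.14 and Il10 0.58 and 1.68, none of which passed, and Ccr9 turned, with -0.46 and 3.11.

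The fifth day in the same arm gives each gene's further course, and shares the day 2 mice with the comparison above. Between day 5 and day 2, 7 of 57 genes passed (12.3%), 2 higher (3.51%) and 5 lower (8.77%). The housekeeping geometric mean was 26851, 10838, 20227 and 13440 in day 5 mice 1 to 4, against 21209 to 38865 on day 2. Whether these lower values moved the day 5 results was not tested. Chil3 had 49, 1087, 164 and 201 scaled counts in day 5 mice 1 to 4, all below the day 2 range (log2 -3.98 ± 1.10, adjusted p = 0.0272). Il23a had 58, 83, 152 and 87 on day 5, close to its day 1 levels (-4.0 ± 1.17 against day 2, adjusted p = 0.0272).

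Il10 had 15116, 33148, 15150 and 9795 scaled counts on day 5, and only day 5 mouse 4 lay below the highest day 2 mouse (1.41 ± 0.43, adjusted p = 0.0272). Arg1 was at 72, 124, 72 and 266 on day 5 (-6.62 ± 1.68 against day 2, adjusted p = 0.0272), with none of the high values of day 2 mice 2 and 3. Also called were Cebpb, a myeloid transcription factor (-2.04 ± 0.63, adjusted p = 0.028), and Cd80 (1.41 ± 0.43, adjusted p = 0.0272). Cd80 had 27366, 52841, 11830 and 24466 scaled counts in day 5 mice 1 to 4, and day 5 mouse 3 lay within the day 2 range. Il1a averaged 7247, 34370 and 16290 scaled counts on days 1, 2 and 5, and its difference between day 5 and day 2 did not pass (-1.08 ± 0.40, adjusted p = 0.0843). Tnf (0.68, adjusted p = 0.401), Ccl7 (1.11, adjusted p = 0.335) and H2-Ab1 (1.14, adjusted p = 0.333) did not pass between these days either.

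**Figure D4:**
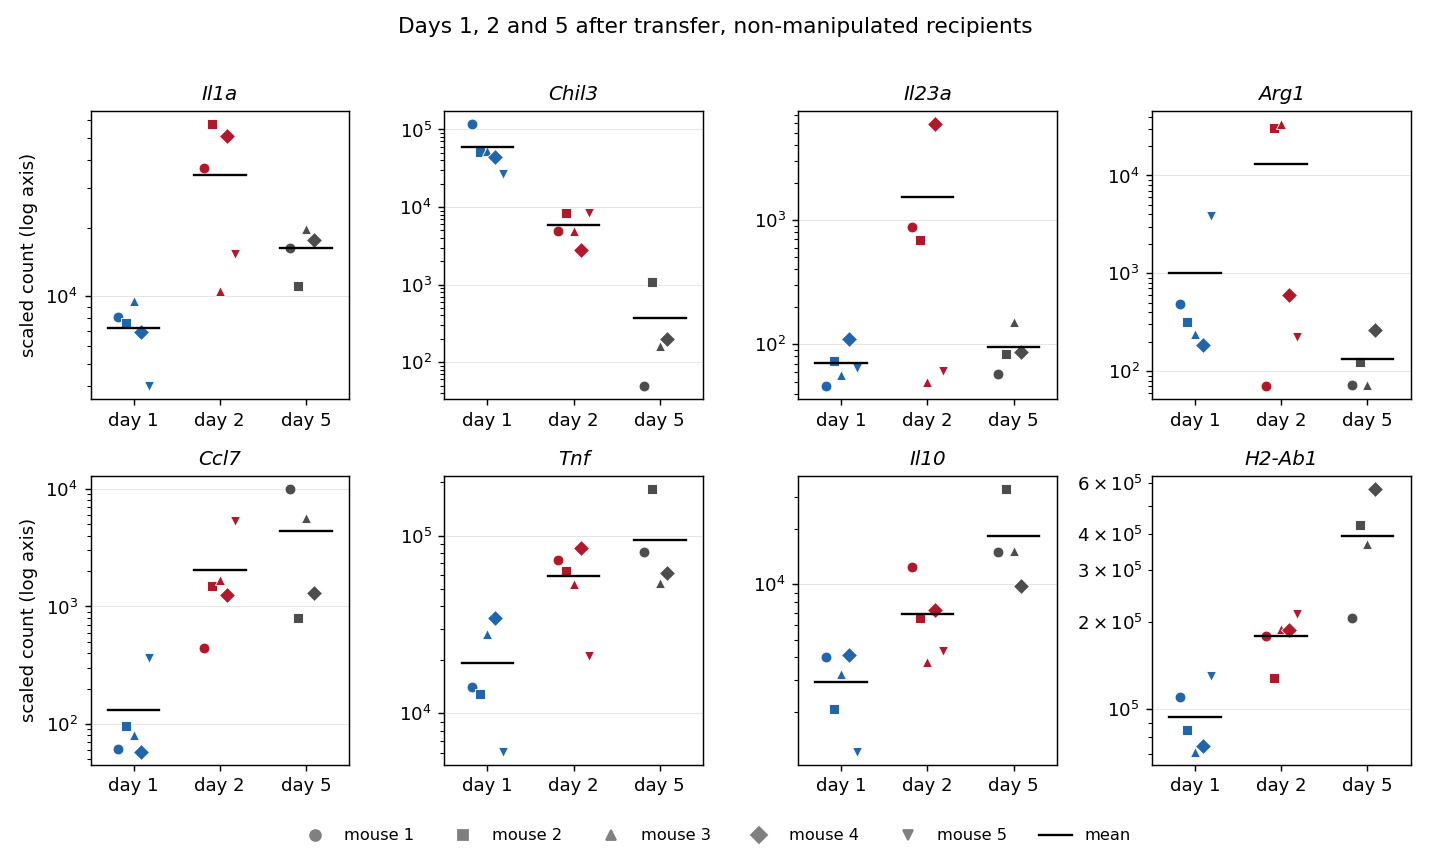
Scaled counts, on a log axis, on days 1, 2 and 5 after transfer in non-manipulated recipients (5, 5 and 4 mice) for 6 genes called between days 2 and 1, Arg1, called between days 5 and 2 only, and H2-Ab1; symbols are mice and lines are group means. Chil3 is lower at each step, Il23a and Arg1 reach their highest values in some of the day 2 mice, and Il10 is highest on day 5.

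The same step was compared in recipients with a manipulated gut, where surgery, anaesthesia and analgesia come together with inflammation. There 1 of 57 genes passed between day 2 and day 1, and it was lower (1.75%, with 0.0% higher). The test of the difference between the 2 changes called 4 genes (7.02%), all with a more positive change in non-manipulated recipients (0.0% with a more negative one). Il1a had a log2 fold change of 2.25 ± 0.39 in non-manipulated and -0.40 ± 0.40 in manipulated recipients, a difference of 2.65 ± 0.55 (adjusted p = 0.00379). In manipulated recipients it was high on both days, at 79419 to 109202 scaled counts on day 2 and 105998 to 138604 on day 1. The non-manipulated mice stayed below all of these on both days.

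Ccl7 had log2 fold changes of 3.97 ± 0.80 in non-manipulated and -0.02 ± 0.75 in manipulated recipients (difference 3.99 ± 1.09, adjusted p = 0.023). Its manipulated levels were 8331 to 19852 scaled counts on day 2 and 5106 to 25296 on day 1, and only day 2 mouse 5 of the non-manipulated mice reached that range. The difference was 3.24 and did not pass without this mouse (adjusted p = 0.0627), and 4 of 19 alternatives lost it, at 3.21 to 3.82 (adjusted p 0.0614 to 0.265). Il6 had 0.89 ± 0.57 in non-manipulated recipients and -2.86 ± 0.66 in manipulated ones, where it was the called gene (adjusted p = 0.0111), with 163 to 341 scaled counts on day 2 and 452 to 3714 on day 1. The difference was 3.76 ± 0.86 (adjusted p = 0.0053). It did not pass with background subtracted (4.18, adjusted p = 0.121) or within the lanes of mice 3 and 4 (2.62, adjusted p = 0.244).

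Il23a had log2 fold changes of 4.43 ± 1.09 in non-manipulated and -0.41 ± 1.01 in manipulated recipients, a difference of 4.83 ± 1.47 (adjusted p = 0.0438). That call was lost without day 1 mouse 1, 2, 3 or 5 (4.71 to 4.85, adjusted p 0.063 to 0.0826) and without day 2 mouse 4 (2.97, adjusted p = 0.18). It was lost in 10 of 19 alternatives as well, and limma gave 2.26 with a pseudocount of 1 (adjusted p = 0.59), 1.94 with 50 (adjusted p = 0.581) and 2.30 on the authors' values (adjusted p = 0.746). For the other genes called in non-manipulated recipients and described here, the difference did not pass (adjusted p between 0.158 and 0.481). Chil3 had -3.32 in non-manipulated and -0.47 in manipulated recipients, Ccr9 2.32 and 0.22, Tnf 1.63 and -0.21, and Il10 1.23 and 0.46. In manipulated recipients Chil3 split by lane set on day 2, with 102124 and 120165 scaled counts in mice 1 and 2 and 7905 and 6162 in mice 3 and 4. On day 1 manipulated mice 1 to 5 had 151608, 109965, 42553, 41827 and 62302.

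**Figure D5:**
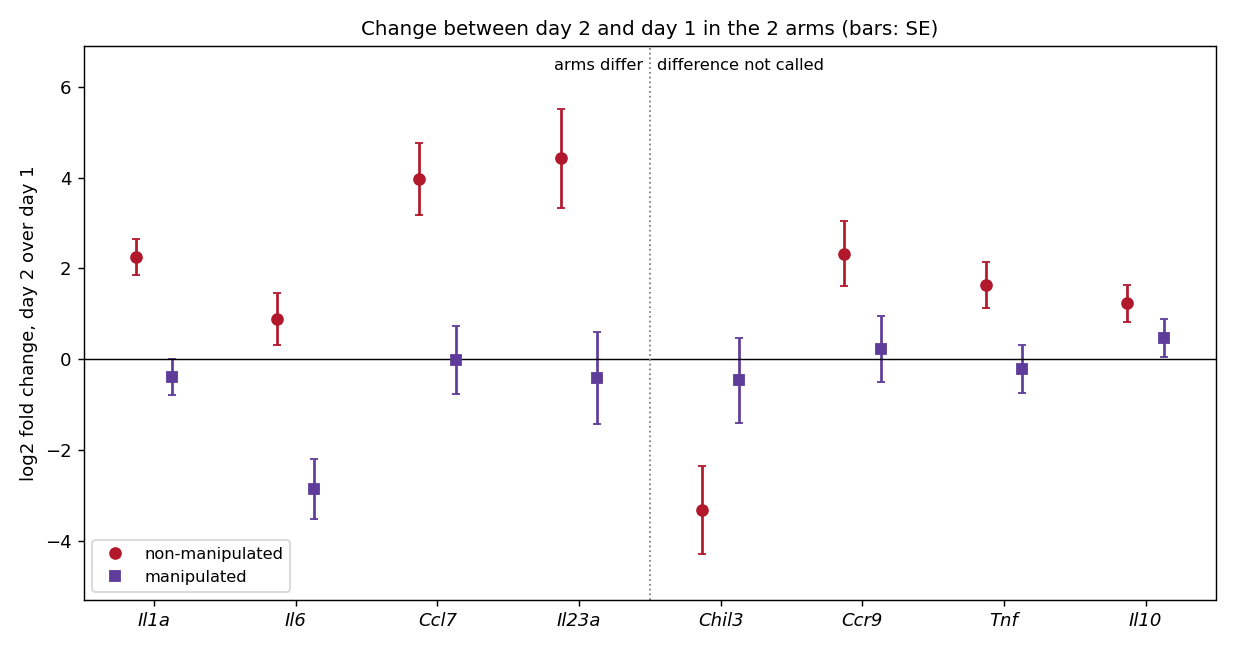
Log2 fold change of day 2 over day 1 in non-manipulated (circles, left) and manipulated (squares, right) recipients for the 4 genes whose changes differ between arms (left of the dotted line) and 4 other genes called in non-manipulated recipients; bars are SE. Il1a, Ccl7 and Il23a changed in the non-manipulated arm and lay near zero in the manipulated arm, while Il6 fell in the manipulated arm.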

How the data were processed

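Samples were grouped by title and day. Deposited raw nCounter values were counts, without normalization, in 14 lanes. In the 12 lanes of mice 3 and 4 the deposited values were counts times a common multiplier, whose reason the sources do not give: all were whole multiples of 1.333 (tolerance 0.001), so they were treated like expected counts, divided by it and rounded. In 1 other lane every deposited count was even and was divided by 2. The authors' normalized score, scaled by them to housekeeping genes, served only as an alternative, and 10 genes rarely detected had been blanked by the authors. Background was the mean plus 2 SD of 5 negative-control probes. The cDNA had been pre-amplified for 16 cycles. Genes were named through probe accessions (69 of 72 names, 3 otherwise).

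Tests used edgeR 4.0.16 in R 4.3.3 (quasi-likelihood, two-sided) with all 27 samples in 1 model of 6 groups (21 residual degrees of freedom, biological coefficient of variation 0.685), housekeeping offsets and Benjamini-Hochberg adjustment over 57 genes. The code was tested on simulated data. The arm difference was an interaction contrast. Named genes were every called gene, uncalled genes without overlap, housekeeping genes, gate and stage markers, genes the study names for this course (chosen by it on these samples, so no independent evidence) and the leader of each of 12 lists, other genes being named to account for the whole panel. All 57 genes enter the fit and the counts over all genes, but 2 are not reported here, and lists and marker sums leave them out. Members and lists were chosen with earlier results of these data known. Alternatives used limma 3.58.1, DESeq2 1.42.0, other scalings and filters, and left-out mice. None of the marker genes chosen for neutrophils, eosinophils, lymphocytes, epithelium or stroma is on the panel.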

Additional observations from a re-analysis of the deposited data

Results flagged for a closer look

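Of 116 groups of 5 values (58 genes on each of 2 days, housekeeping genes included), 22 held a mouse far from the other 4 by Dixon's criterion, which chance gives in about 1 of 20 groups of normally distributed values, or about 6 here. The values were unlogged scaled counts, and 20 of the 22 were high. On day 2 there were 14, of which 10 were mouse 5, and on day 1 there were 8, of which 4 were mouse 5. Day 2 mouse 5 was high in Ccl7 (5366 scaled counts), Ccr9 (3106), Mrc1 (777), Cxcl9 (18497), Emr1 (7296), Cd68 (35250), Siglec-1 (14477), Ccr2 (118573) and Cx3cr1 (3374), and low in Cd14 (42252). These hold 5 of the 7 measured macrophage markers. The other day 2 values were Il23a in mouse 4 (5933), Retnla in mouse 2 (222), Cxcl11 in mouse 3 (3761) and the housekeeping gene Gapdh in mouse 1 (155518), all high. Day 1 mouse 5 was high in Ccl7 (361), Arg1 (3856) and Siglec-1 (22975), and low in Il6 (34). The other day 1 values, all high, were Chil3 in mouse 1 (118305), Retnla in mouse 4 (6007), Mrc1 in mouse 2 (216) and Card9 in mouse 3 (26566).

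The interaction test called a difference between the arms in the change between day 2 and day 1 for 4 genes. These were Ccl7 (3.99 log2 units), Il1a (2.65), Il23a (4.83) and Il6 (3.76), each more positive in non-manipulated than in manipulated recipients. Of 19 alternatives, 10 lost the call of Il23a, 4 that of Ccl7, 2 that of Il6 and 1 that of Il1a.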

How the results depend on the processing

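Scaling by TMM moved the median of all genes to 0.34, leaving out Gapdh to 0.28, leaving out Rpl19 to -0.02 and the authors' factor to -0.05, against 0.10. The count of 8 called genes lay between 6 and 11 under 17 of 21 alternatives, DESeq2 giving 10 with housekeeping and 11 with median-of-ratios size factors (1 adjusted p, of Retnla, was not available). It was 4 with limma at a pseudocount of 1, 5 at 50, 4 with limma on the authors' normalized values, and 4 within the lanes of mice other than 3 and 4, where fewer mice were compared. Within the lanes of mice 3 and 4, where fewer mice were compared as well, 9 genes were called, 4 of them among the 8. There Ccr9, Il10, Il1a and Il23a lost their calls, and Arg1, H2-Ab1, Mrc1, Retnla and Trem2 gained one. The count without each mouse in turn ran from 4 to 9, with 4 without day 1 mouse 1 or day 2 mouse 4. Same-numbered mice of the 2 days correlated at -0.11 to 0.23, and 0 of 5 correlated best with their own number. With so few pairs this cannot decide whether shared numbers pair the samples. The replicate block gave 7 calls (Ccr9 lost), and 3 between arms (Il23a lost). The count of 4 arm differences was 2 with limma at a pseudocount of 50, 2 with total scaling, 2 with limma on the authors' normalized values, 2 with background subtracted and 2 within the lanes of mice 3 and 4, and 3 to 4 without each mouse in turn. It could not be fitted to the 10 or 14 samples. The cause of these shifts was not tested beyond the sample numbers given.

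Directions turned in genes that had not passed, and in Ccr9. Within the lanes of mice 3 and 4 the log2 fold change was -0.46 for Ccr9, -0.79 for Cd68, -0.09 for Emr1, 0.39 for Fcgr1, -0.62 for Nod2 and -0.21 for Relb. Within the other lanes it was 0.32 for Cd44, 0.49 for Cx3cr1, 0.29 for Irf5, 0.11 for Nfkb2, 1.31 for Retnla and 0.84 for Trem1. TMM gave 0.02 for Cd44, 0.25 for Cx3cr1, 0.18 for Irf5 and 0.01 for Nfkb2. Leaving out Rpl19 gave -0.02 for Ccr2 and -0.09 for Nod2, and leaving out Gapdh gave 0.05 for Irf5. The authors' factor gave -0.08 for Ccr2 and -0.06 for Nod2. Limma on their values gave -0.02 for Ccr2, -0.05 for Cd68, -0.06 for Nod2 and -0.89 for Ly6c1. Ly6c1 also had -0.24 with DESeq2 median-of-ratios factors, -0.76 with limma at a pseudocount of 1 and -0.61 at 50. A block for the 2 sets of lanes gave 0.07 for Cx3cr1, and the replicate block gave -0.05 for Nod2. Without mice 5 of both days, chosen after seeing the data, Ccr2 had -0.25, Cd68 -0.73 and Emr1 -0.14. Without each mouse in turn, Ccr2 ran from -0.13 to 0.37, Cd68 from -0.53 to 0.48, Cx3cr1 from -0.78 to 0.20, Fcgr1 from -0.41 to 0.05, Irf5 from -0.34 to 0.06, Ly6c1 from -0.54 to 1.32, Nod2 from -0.19 to 0.30, Retnla from -5.23 to 0.80, Trem1 from -0.75 to 0.21 and the total count from -0.149 to 0.057. Each value rests on 100 sorted cells and pre-amplified cDNA. Il6, Retnla, Tlr2, Ccl8 and Il23a on day 1 lie close to background, as do Ccl7 and Mrc1 in most day 1 mice.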
